A study of Mus musculus with 6 samples.

Results

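The transcriptional coactivators YAP and TAZ, the TEAD factors they bind and a group of their target genes were followed by RNA sequencing in MEFs (mouse embryonic fibroblasts), cells of connective tissue that are taken from embryos and grown in culture. The group held 10 of the 56953 genes in the deposited table: Yap1, Wwtr1 (which encodes TAZ), Tead1, Tead2, Ccn1, Ccn2, Ankrd1, Amotl2, Ajuba and Axl. They were chosen by name, through the Ensembl identifier of each row, with earlier results of these data known, and no measured value entered the rule. The study compared 3 libraries labelled WT with 3 labelled KO. The second line is named GαqKO in the study's text, which describes it as Gαq/11 knockout MEFs. Both lines came from another laboratory and grew untreated in DMEM with fetal bovine serum, and neither the labels nor the study's text give the age of the embryos, the strain or the number of clones. Its text calls the libraries of a genotype biological replicates, and the labels do not say whether they came from separate cultures, so p-values measure the spread between these libraries only.

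YAP and TAZ carry no DNA binding domain and act on genes through the TEAD factors. The Hippo pathway holds them back: the MST kinases, encoded by Stk3 and Stk4, activate the LATS kinases, which phosphorylate YAP and TAZ and keep them in the cytoplasm. In fibroblasts both coactivators respond to matrix stiffness, to actin tension and to receptors that signal through Gq-class G proteins, and they switch on genes of matrix, adhesion and growth. Ccn1, Ccn2 and Ankrd1 are the genes most often read as a measure of their activity. The libraries measure RNA only, and the phosphorylation and location of YAP and TAZ were not analysed here.

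The label check came first. Gna11, which encodes Gα11, fell from 2148 ± 29.0 normalized counts (mean ± SD, n = 3) in the WT libraries to 452 ± 28.7 in the GαqKO libraries (log2 fold change -2.25, limma adjusted p = 9.16e-13). Gnaq, which encodes Gαq, did not: its counts were 1666, 1660.2 and 1747 in WT and 1959.7, 1931 and 1888 in GαqKO (log2 fold change 0.19, limma adjusted p = 0.00212). A gene count does not show whether a part of the gene was deleted. The study's text reports that Gαq protein was missing from GαqKO MEFs, by Western blot and by immunofluorescence. The names WT and GαqKO stand below for the libraries labelled WT and KO. The Y-linked genes Ddx3y, Eif2s3y, Kdm5d and Uty had means of 1197, 668, 534.5 and 296 normalized counts in WT and were at 0 in all 3 GαqKO libraries, and Xist was listed at 0 in all 6. The lines therefore differed in Y-linked expression as well as in Gna11, and the part of the genotype and that of other differences between the lines cannot be told apart.

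Normalized counts are gene counts divided by 1 size factor per library, and they summed to between 11392429 and 11483486 per library. Fold changes are GαqKO minus WT on the scale of log2(normalized count + 1), and each was tested with limma among 14096 genes that reached 10 normalized counts in 3 or more libraries. Of 10 fibroblast markers, 4 were higher and 6 lower in GαqKO at an adjusted p under 0.05, against 31.8% and 34.1% of all genes tested. Their summed normalized counts ran from 84569 to 90370.3 in WT and from 61478 to 64686 in GαqKO. The fall of the sum included Col1a1, which went from 16671 ± 1168 to 5774.5 ± 272 (log2 fold change -1.53), and Fn1, from 11826 ± 1311 to 7117 ± 433 (log2 fold change -0.73), and Vim fell from 41785 ± 2519 to 33508 ± 729. Of the markers that rose, Pdgfra had a mean of 19.6 normalized counts in WT against 2320 in GαqKO, and Thy1 had 0.70 against 64.9. Epithelial markers summed to 515 to 544 in WT and 10.1 to 23.1 in GαqKO, and almost all of the WT sum was Cdh1 and Krt14, the 2 of 7 that were tested and both lower in GαqKO. Krt5 and Cldn4 were at or near 0 in every library, and Epcam had at most 8.09. Krt8 and Krt18, not tested either, were higher in every WT library. Krt8 had 7.12 to 30.1 in WT and at most 1.16 in GαqKO, and Krt18 9.16 to 18.8 and at most 1.88. Endothelial markers summed to 12.6 to 23.0 in WT and 18.8 to 26.6 in GαqKO, and blood cell markers to 88.8 to 104 and 59.2 to 89.0, with Ptprc, Cd3e and Hba-a1 at or near 0. Of each of these lists 1 of 5 markers was tested, and Cd68 was lower (log2 fold change -0.48, adjusted p = 0.0296) while Pecam1 was not called. What these markers contribute to the results below was not tested. In bulk RNA, fewer cells that express a gene and less RNA of it per cell cannot be told apart.

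TEAD factors bind the core motif GGAATG, so the letters just before the start sites of the 10 genes were read from RefSeq promoter windows, which hold the 250 bases before each start. Windows were given for 8 of the 10 genes and none for Ccn2 and Tead1. The sequences come from the RefSeq table of build GRCm38.p6, and each matched 1 place on its GRCm39 chromosome, whose coordinates are given. The motif, read on either strand as GGAATG or CATTCC, was in the windows of 7 of these 8 genes and was not found in that of Tead2. Of 27025 genes with RefSeq windows of the same length, 14.4% held it, as did 12.6% of the 32851 windows. Ankrd1 and Ajuba held 2 copies each, against 2 or more in 1.18% of all genes with windows. A match of 6 letters is a description of the sequence and not a measured TEAD site. Whole windows that lie outside the annotated exons of their genes are shown for 3 genes, with the motif in capitals: for Ccn1, a target that fell, for Ajuba, which moved little, and for Wwtr1, which rose.

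Ccn1, chr3:145355741-145355990, minus strand: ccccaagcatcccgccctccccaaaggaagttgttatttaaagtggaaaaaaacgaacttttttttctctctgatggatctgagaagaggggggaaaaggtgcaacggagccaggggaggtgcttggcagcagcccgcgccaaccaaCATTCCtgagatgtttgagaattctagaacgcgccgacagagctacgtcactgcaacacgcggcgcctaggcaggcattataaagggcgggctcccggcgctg
Ajuba, chr14:54815119-54815368, minus strand: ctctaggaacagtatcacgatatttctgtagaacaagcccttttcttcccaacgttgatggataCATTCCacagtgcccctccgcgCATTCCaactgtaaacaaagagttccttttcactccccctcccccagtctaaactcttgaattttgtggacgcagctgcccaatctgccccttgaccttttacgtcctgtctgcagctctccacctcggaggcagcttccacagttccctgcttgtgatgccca
Wwtr1, chr3:57483332-57483581, minus strand: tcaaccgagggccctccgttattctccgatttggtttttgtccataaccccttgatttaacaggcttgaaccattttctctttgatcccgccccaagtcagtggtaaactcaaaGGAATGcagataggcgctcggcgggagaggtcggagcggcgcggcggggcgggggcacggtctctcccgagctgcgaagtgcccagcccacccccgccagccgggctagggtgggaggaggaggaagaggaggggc

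The windows of the other genes overlap annotated exons in part or, for Ankrd1, in full, so only the motif with the 12 bases on each side is shown. In Ankrd1 the copies began 210 and 123 bases before the RefSeq start, in Amotl2 65, in Yap1 141 and in Axl 233.

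Ankrd1, distal copy, chr19:36097437-36097466, minus strand: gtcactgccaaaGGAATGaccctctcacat
Ankrd1, proximal copy, chr19:36097350-36097379, minus strand: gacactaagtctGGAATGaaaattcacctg
Amotl2, chr9:102594926-102594955, plus strand: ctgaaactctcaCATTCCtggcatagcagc
Yap1, chr9:8004721-8004750, minus strand: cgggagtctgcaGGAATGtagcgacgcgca
Axl, chr7:25488374-25488403, minus strand: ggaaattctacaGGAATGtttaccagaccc

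The motif was in the windows of genes that fell more than 2-fold (Ccn1, Ankrd1, Amotl2), of genes that moved by less (Yap1, Ajuba, Axl) and of Wwtr1, which went up.

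Between the lines, 8 of the 10 genes were lower in GαqKO at an adjusted p under 0.05, 1 was higher (Wwtr1) and 1 was not called (Tead1). Without WT replicate 3, Tead1 was called as well, so that 2 were higher. Of all genes tested, 34.1% were lower and 31.8% higher by the same rule, so a call alone was common in this comparison. Past a log2 fold change of 1 as well, 4 of the 10 were lower (Ccn2, Ankrd1, Amotl2 and Ccn1) and 0 higher, against 10.5% and 10.2% of all genes. The median log2 fold change was -0.58 over the 10 genes and -0.01 over all genes tested. WT and GαqKO libraries did not overlap for 9 of the 10, against 69.6% of all genes.

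**Figure D1:**
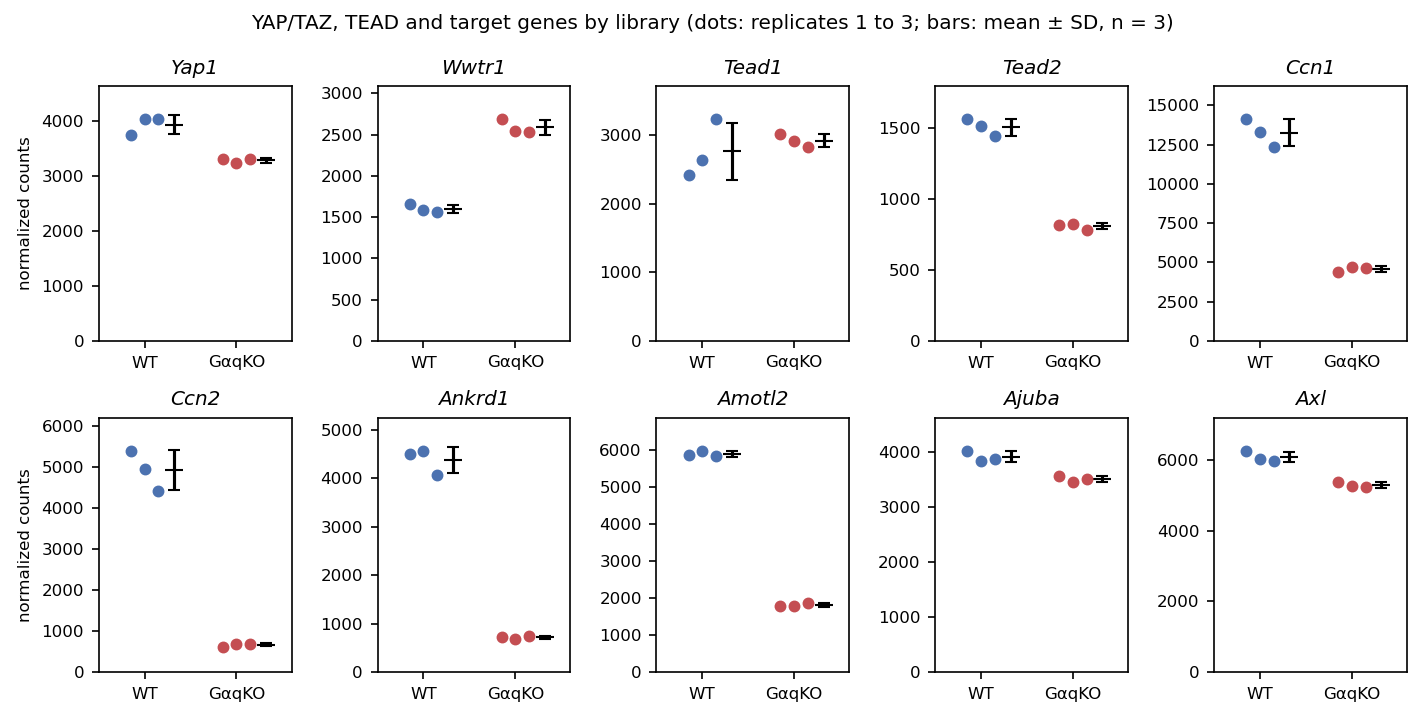
Normalized counts (vertical axes, from 0) of each of the 10 genes in the 3 WT and 3 GαqKO libraries (dots), with the mean ± SD of each group beside them. The groups are apart in every panel but that of Tead1, where WT spans 2418 to 3227 and GαqKO 2829 to 3011.

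The coactivators moved in opposite directions. Yap1 (ENSMUSG00000053110.14, chr9:7932000-8004661, minus strand, GRCm39), which encodes YAP, had 3731, 4025 and 4022 normalized counts in the WT libraries and 3294, 3234 and 3310.1 in the GαqKO libraries. Every GαqKO library was below every WT library, but the distance was small, with means of 3926 ± 169 and 3279 ± 40.1. The log2 fold change was -0.26 (SE 0.043, limma adjusted p = 0.000133), and 32.8% of all genes fell by more.

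Wwtr1 (ENSMUSG00000027803.15, chr3:57363067-57483331, minus strand), which encodes TAZ, had 1655, 1587 and 1557 normalized counts in WT and 2686, 2541 and 2533 in GαqKO. It was the 1 gene of the 10 called higher in the main fit, and it rose 1.62-fold between means of 1599.9 ± 50.1 and 2587 ± 85.9. Its log2 fold change was 0.69 (SE 0.046, adjusted p = 1.36e-08).

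Dividing by exon length lets the paralogs be compared with each other. On that scale of normalized counts per kb of exon, Yap1 went from 419 ± 18 to 349.8 ± 4.28 and Wwtr1 from 135 ± 4.23 to 219 ± 7.26, so Yap1 had the higher level in both lines. The share of Yap1 in the sum of both was 74.0%, 76.2% and 76.5% in the WT libraries and 60.8%, 61.6% and 62.3% in the GαqKO libraries. The sum itself was 554 ± 14 per kb in WT and 568 ± 9.36 in GαqKO, and its libraries overlapped between the lines (538 to 563 against 559.7 to 578). On this scale the makeup of the coactivator pool at the RNA level differed between the lines by more than the spread between libraries. Its total per kb did not separate them, but this depends on the exon lengths used. Without that division, the summed counts of every GαqKO library were above those of every WT library.

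**Figure D2:**
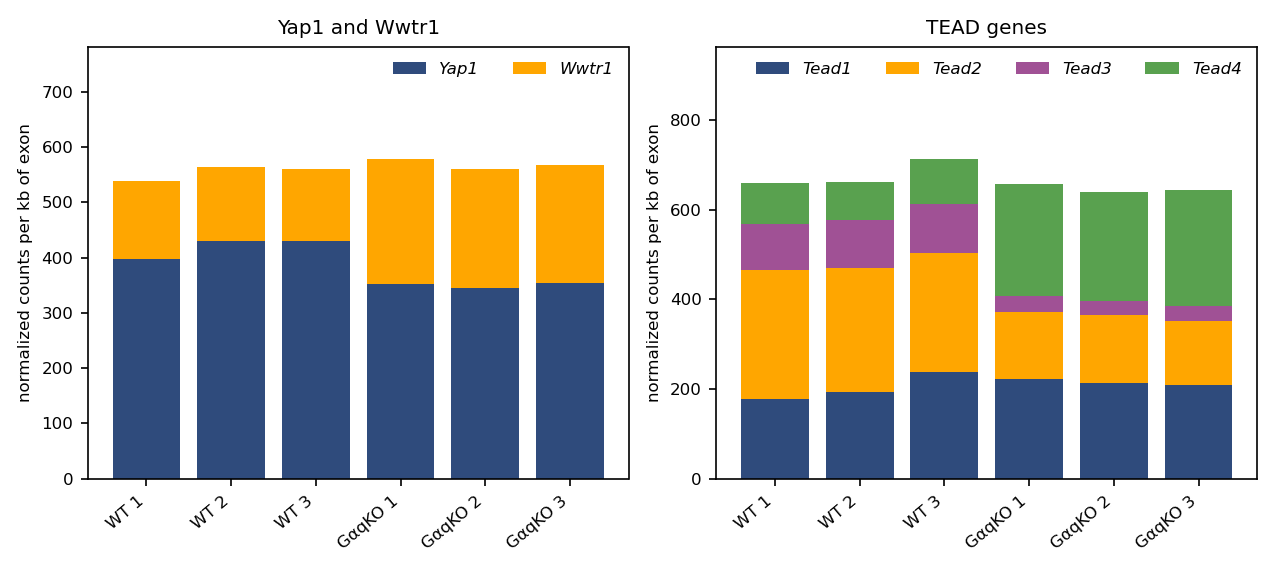
Normalized counts per kb of exon (vertical axes, from 0) in each library, stacked for Yap1 and Wwtr1 (left) and for the 4 TEAD genes (right). The sums stay between 538 and 578 (left) and between 640 and 713 (right), while the bands inside the bars change size between WT and GαqKO.

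The TEAD genes encode the DNA binding partners, and all 4 were expressed in both lines. Tead1 (ENSMUSG00000055320.19, chr7:112278522-112506014, plus strand) had 2418, 2628 and 3227 normalized counts in WT and 3011, 2907 and 2829 in GαqKO. The groups overlapped, since WT replicate 3 was above every GαqKO library and the other WT libraries were below them. The log2 fold change was 0.09 (SE 0.080, 95% interval -0.08 to 0.26, adjusted p = 0.336). Without WT replicate 3 it was 0.21 with an adjusted p of 0.00237, so this library decides the call. That library also stood apart by gene length: against the other WT libraries its median log2 difference was -0.07 over 3071 genes with under 3 kb of exon and 0.08 over 2749 genes with over 10 kb, and Tead1, with 13573 bases of exon, was 0.36 higher in it. The part of transcript length in the Tead1 value was not tested.

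Tead2 (ENSMUSG00000030796.18, chr7:44865172-44883071, plus strand) had 1565, 1514.5 and 1445 normalized counts in WT and 818, 827 and 786.5 in GαqKO. The groups were far apart, with means of 1508 ± 60.2 and 810.4 ± 21.1. Its log2 fold change of -0.90 (SE 0.052, 95% interval -1.01 to -0.78, adjusted p = 3.23e-09) fell just short of the 2-fold threshold.

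The other two TEAD genes, which are not among the 10, moved further and in opposite directions. Tead3 fell from 716 ± 22.6 to 217 ± 14.6 normalized counts (log2 fold change -1.72, SE 0.076, adjusted p = 1.94e-10). Tead4 rose from 558 ± 44.2 to 1527 ± 51.5 (log2 fold change 1.45, SE 0.063, adjusted p = 1.58e-10). Per kb of exon, the order of the levels was Tead2, Tead1, Tead3 and Tead4 in WT, at 276, 203, 107 and 92.0. In GαqKO it was Tead4, Tead1, Tead2 and Tead3, at 252, 215, 148 and 32.3. This order and the shares below depend on the merged exon lengths, such as 13573 bases for Tead1, 5463 for Tead2 and 6067 for Tead4. Before division by length, Tead1 had the highest normalized counts of all 4 in both lines. Tead3 and Tead4 lie next to each other in the WT order, at 15.7% ± 0.213 and 13.6% ± 0.523 of the TEAD sum. Tead4 went to 38.9% ± 1.34 in GαqKO and Tead2 from 40.8% ± 3.32 to 22.9% ± 0.669. The sum of all 4 was 678 ± 30.4 per kb in WT and 647 ± 8.51 in GαqKO, with 659 to 713 against 640 to 656.5 in single libraries. The sums did not overlap, but the nearest libraries, at 658.6 in WT and 656.5 in GαqKO, were closer than the SD within either line.

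The target genes most often used as readouts of YAP and TAZ all fell more than 2-fold. Ccn2 (ENSMUSG00000019997.12, chr10:24471333-24474900, plus strand), also called CTGF, encodes a secreted protein of the matrix that promotes fibrosis. It had 5399.5, 4955 and 4416 normalized counts in WT and 629, 701 and 692 in GαqKO. Every GαqKO library was far below the lowest WT library. Between the means of 4924 ± 492 and 674 ± 39.0 lay a 7.31-fold difference (log2 fold change -2.86, SE 0.068, adjusted p = 4.98e-13), and 3.99% of all genes fell by more.

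Ccn1 (ENSMUSG00000028195.5, chr3:145352720-145355738, minus strand), also called CYR61, is a secreted relative of Ccn2 that binds integrins. Its counts were 14124, 13339 and 12369 in WT and 4396.5, 4705 and 4643 in GαqKO. It fell 2.90-fold, from 13277 ± 879 to 4582 ± 163 (log2 fold change -1.53, SE 0.051, adjusted p = 1.09e-11). Per kb of exon it had the highest level of the 10 genes in both lines, 6534 ± 433 in WT and 2255 ± 80.3 in GαqKO. The distance between Ccn1 and Ccn2 therefore differed between the lines, since their levels per kb were 6534 and 1545 in WT and 2255 and 211 in GαqKO.

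Ankrd1 (ENSMUSG00000024803.10, chr19:36089352-36097506, minus strand) encodes a nuclear ankyrin repeat protein that is also made in heart and skeletal muscle under load. It had 4502.5, 4568 and 4074.5 normalized counts in WT and 728, 696 and 743 in GαqKO. The fall was 6.07-fold, from 4381.5 ± 268 to 722 ± 24.0 (log2 fold change -2.60, SE 0.053, adjusted p = 1.13e-13). Because Ankrd1 is also a muscle gene, a list of 8 muscle markers is given beside it. Their summed counts ran from 749 to 820.4 in WT and from 28.9 to 33.2 in GαqKO, and nearly all of the WT sum was Tnnt2, a cardiac troponin gene, at means of 753 in WT and 6.49 in GαqKO. Des and Ttn made up most of the GαqKO sum, at means of 12.9 and 11.0. Of this list 3 genes were tested and 1, Tnnt2, was lower. Myod1, Myog, Myf5 and Myh6, which define muscle cells, were at or near 0 in every library.

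Ccn1, Ccn2 and Ankrd1 each share exon bases with an antisense long noncoding RNA, and the strand setting of the counting is not given in the sources used here. The shares were 23.0% of the Ccn1 exons with Gm17501, 36.5% of the Ccn2 exons with Gm15270 and 24.3% of the Ankrd1 exons with Gm56671. Gm17501 had 544, 493 and 488 normalized counts in WT and 183, 199 and 234 in GαqKO, Gm15270 had at most 4.86, and Gm56671 was at 0 in all libraries. Reads of Ccn1 and of its antisense gene may not be separable. The counts of Gm17501 were small beside those of Ccn1, but they do not show how reads in the shared exon bases were assigned. What this contributes to the counts and levels per kb of Ccn1, Ccn2 and Ankrd1 was not tested.

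The remaining genes of the 10 are the targets Amotl2, Ajuba and Axl. Amotl2 (ENSMUSG00000032531.16, chr9:102593836-102610617, plus strand) encodes a protein of the angiomotin family that binds YAP and keeps it out of the nucleus. It had 5861, 5977 and 5838 normalized counts in WT and 1789.8, 1778 and 1882 in GαqKO. Its WT libraries had the lowest coefficient of variation of the 10 genes, 1.26%, against 3.13% in GαqKO, and the groups were far apart. The fall was 3.24-fold, from 5892 ± 74.5 to 1817 ± 56.9 (log2 fold change -1.70, SE 0.041, adjusted p = 6.80e-13).

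Ajuba (ENSMUSG00000022178.12, chr14:54804787-54815027, minus strand) encodes a LIM protein of cell junctions that binds and restrains the LATS kinases. Its counts were 4019, 3832 and 3868 in WT and 3561, 3461 and 3502.5 in GαqKO. The groups were apart but close, with a log2 fold change of -0.16 (SE 0.040, 95% interval -0.24 to -0.07, adjusted p = 0.00394).

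Axl (ENSMUSG00000002602.17, chr7:25456535-25488329, minus strand) encodes the receptor tyrosine kinase for Gas6. It had 6248, 6003 and 5971 normalized counts in WT and 5379.7, 5264 and 5213 in GαqKO. Its log2 fold change was -0.20 (SE 0.039, 95% interval -0.29 to -0.12, adjusted p = 0.000508). Ajuba and Axl passed the test with changes below the median absolute log2 fold change of all genes, which was 0.39, as did Yap1.

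**Figure D3:**
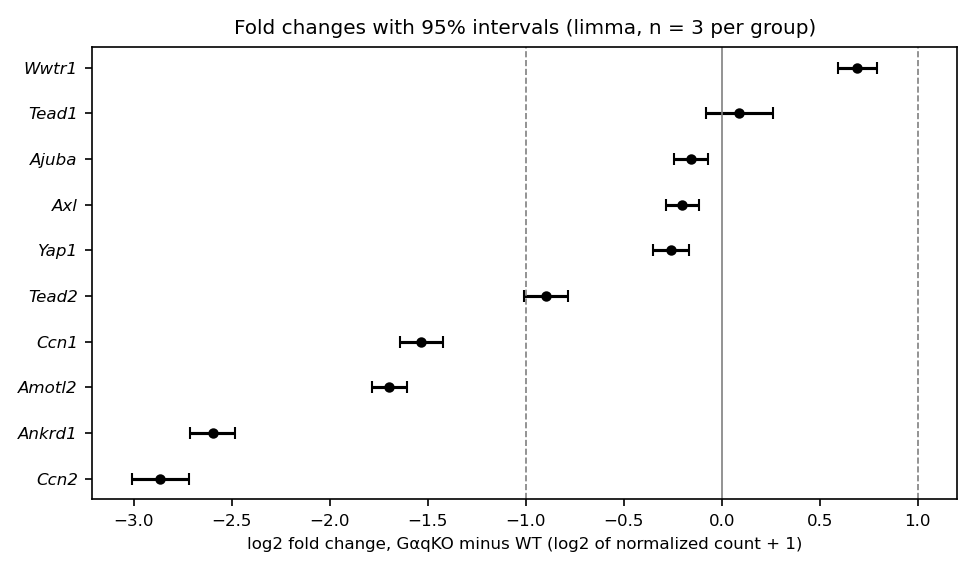
Log2 fold change of each of the 10 genes (horizontal axis, GαqKO minus WT, on the scale of log2(normalized count + 1)) with its 95% interval from limma. Dashed lines mark a 2-fold change, and only Ccn1, Amotl2, Ankrd1 and Ccn2 have whole intervals beyond it, while that of Tead1 includes 0.

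The genes called lower thus fell into groups whose intervals did not overlap between groups. The intervals of Ccn2 (-3.01 to -2.72) and Ankrd1 (-2.71 to -2.48) lay below those of Amotl2 (-1.79 to -1.61) and Ccn1 (-1.64 to -1.42), and these lay below that of Tead2. Axl, Ajuba and Yap1 had intervals between -0.35 and -0.07. The interval of Tead1 (-0.08 to 0.26) overlapped that of Ajuba, and that of Wwtr1 (0.59 to 0.79) lay above all others. These intervals are for single genes, and differences between genes were not tested.

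Genes around these 10 were taken from lists of the Hippo pathway. The counts of each list stand beside 31.8% higher and 34.1% lower among all genes tested. Past the fold threshold these shares were 10.2% and 10.5%. Of 16 core kinases and their activators, 15 were tested, 7 were higher, 6 lower and 2 (Mob1b and Wwc2) were not called, with a median log2 fold change of 0.05. Past the fold threshold 1 was higher and 1 lower, and without GαqKO replicate 2 it was 2 higher. Frmd6, a FERM domain protein upstream of the kinases, rose from 452.5 ± 13.7 to 1072 ± 35.4 normalized counts (log2 fold change 1.24, adjusted p = 3.39e-10). Wwc1, or KIBRA, a scaffold that activates LATS kinases, fell from 1682 ± 119 to 560.0 ± 14.5 (log2 fold change -1.58, adjusted p = 3.90e-11).

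The kinases themselves, picked for their role and after their values were seen, moved by less than 2-fold. Stk3 rose from 654 ± 41.4 to 1105 ± 72.5 normalized counts, Stk4 from 1641 ± 96.6 to 2905.5 ± 46.3, and their scaffold Sav1 from 909.9 ± 44.8 to 1783 ± 97.8, with log2 fold changes of 0.76, 0.83 and 0.97. Lats1, the kinase that phosphorylates YAP and TAZ, fell from 2304 ± 122 to 1647 ± 69.7 (log2 fold change -0.48). The limma adjusted p was 1.91e-06 for Lats1 and 2.08e-07 or lower for Stk3, Stk4 and Sav1. Lats2 had at most 9.16 normalized counts in any library and was not tested. Of its exon bases, 95.0% lie inside the span of other annotated genes and 28.2% in their exons.

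Among 13 other binding partners of TEAD, YAP or TAZ, 12 were tested, 2 were higher and 8 lower, with a median log2 fold change of -0.19. Past the fold threshold, Tead4 was higher, and Tead3 and Vgll2 were lower. Vgll2, a TEAD cofactor named here after its values were seen, had 36.5, 41.8 and 27.5 normalized counts in WT and 0 in each GαqKO library, at least 11.8-fold lower at a floor of 3 counts per library. Vgll1 was listed at 0 in all libraries.

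Of 10 Hippo antagonists and upstream cadherins, all were tested, 4 were higher (Fat4, Dchs1, Sik2 and Src) and 2 lower (Fat1 and Ppp2r1a), with a median log2 fold change of 0.02. The 3 past the fold threshold were all higher. The list pools antagonists with upstream cadherins, so its counts do not describe either kind alone. The giant cadherin Fat4 rose from 71.8 ± 18.9 to 402 ± 46.8 normalized counts (log2 fold change 2.49, adjusted p = 1.05e-08). Its ligand Dchs1 had 0, 0 and 1.02 normalized counts in WT and 260.1, 292.5 and 225 in GαqKO, so its WT level was below the floor. The kinase Sik2 rose from 196.5 ± 19.7 to 405 ± 9.59 (log2 fold change 1.04, adjusted p = 2.62e-07). Of its exon bases, 51.7% lie inside the span of other annotated genes and 13.7% in their exons.

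A list of 26 further YAP and TAZ targets, taken from general knowledge, showed no common direction. Of the 24 tested, 9 were higher, 9 lower and 6 not called, against 31.8% higher and 34.1% lower of all genes tested. Their median log2 fold change was 0.07. Past the fold threshold 6 were higher and 5 lower, against 10.2% and 10.5% of all genes. Lats2 and Tgm2 were not tested, and Ptpn14 and Lats2 also stand in the lists above.

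Thbs1, which encodes thrombospondin 1, fell from 8639 ± 346 to 1244 ± 44.9 normalized counts (log2 fold change -2.79, adjusted p = 1.54e-14). Ccdc80 fell from 709 ± 84.7 to 68.6 ± 8.97 (log2 fold change -3.35, adjusted p = 2.90e-11), and the growth factor gene Tgfb2 from 317 ± 20.2 to 31.0 ± 3.84 (log2 fold change -3.32, adjusted p = 1.99e-10). Of the Tgfb2 exon bases, 71.5% lie inside the span of other annotated genes and 3.7% in their exons. Edn1, which encodes endothelin 1, went from 433 ± 4.94 to 78.4 ± 17.0 (log2 fold change -2.47, adjusted p = 3.63e-09).

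Other genes on the same list rose. Ereg, which encodes the EGF receptor ligand epiregulin, rose from 289 ± 33.1 to 2917 ± 54.1 normalized counts (log2 fold change 3.34, adjusted p = 2.69e-13). All of its exon bases lie inside the span of another annotated gene, and 3.9% lie in exons of other genes. Ptgs2, or cyclooxygenase 2, rose from 688 ± 29.4 to 2489 ± 62.6 (log2 fold change 1.85, adjusted p = 1.62e-12). Igfbp3 rose from 243 ± 21.1 to 846 ± 70.0 (log2 fold change 1.80, adjusted p = 3.67e-10) and Rbms3 from 155.5 ± 21.6 to 409 ± 32.6 (log2 fold change 1.39, adjusted p = 9.86e-08). The remaining genes higher past the threshold were Col8a1 and, at under 23 normalized counts in every library, Areg.

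**Figure D4:**
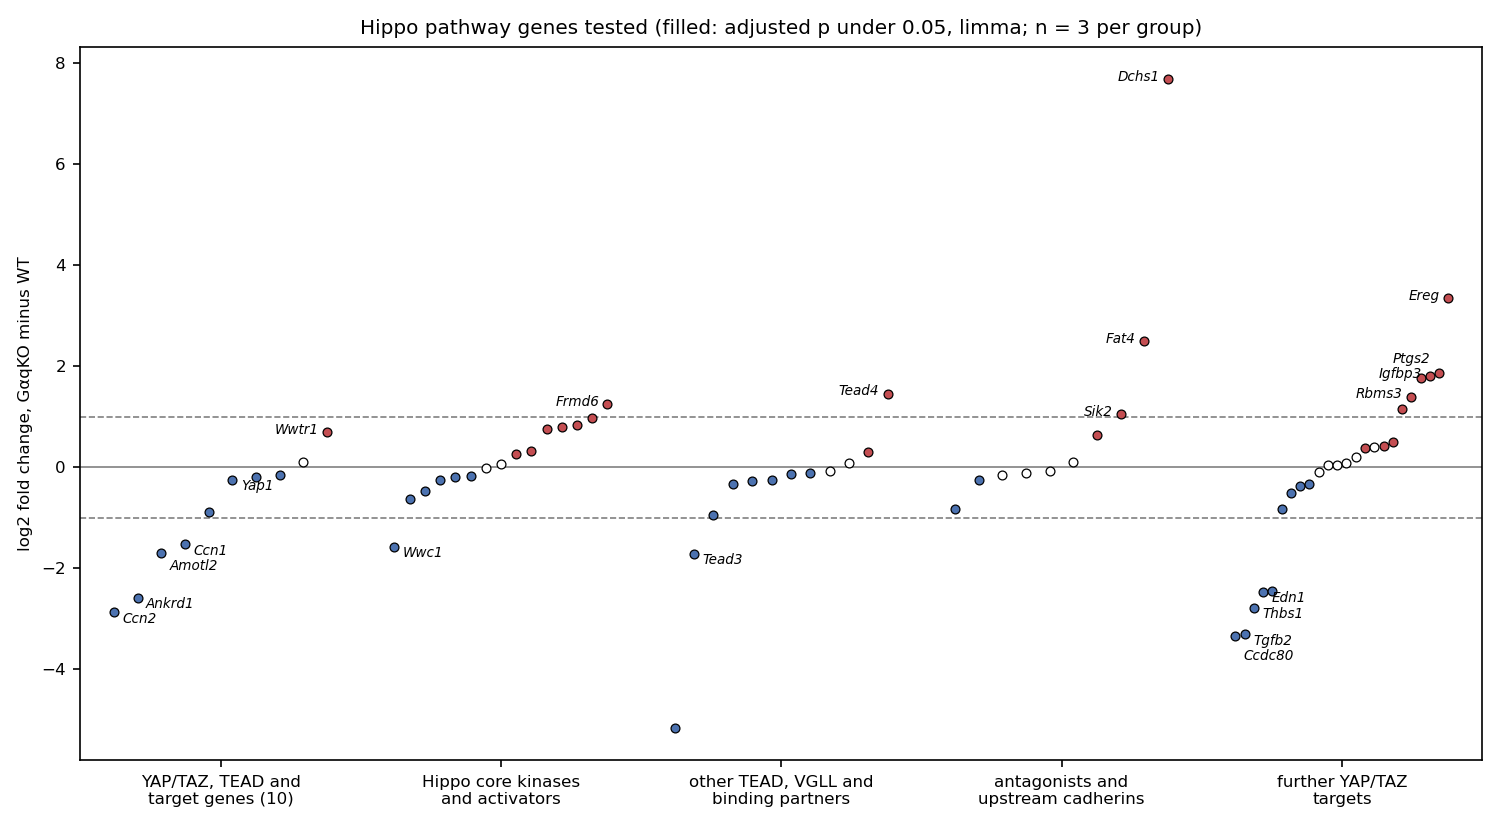
Log2 fold change (vertical axis, GαqKO minus WT) of each tested gene in the 10-gene group and 4 Hippo pathway lists, in rising order within a list, with filled dots for genes with an adjusted p under 0.05. The 4 labelled genes under -1 at the left are Ccn2, Ankrd1, Amotl2 and Ccn1, while the list of further targets at the right has 6 dots above 1 and 5 under -1, and the value of Dchs1 depends on the constant added before the logarithm.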

How the data were processed

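The authors prepared poly-A selected libraries from MEFs with a stranded kit, sequenced paired ends, aligned the reads with Rbowtie2 to GRCm39 and ran featureCounts on GENCODE gene annotation. The table they deposited holds a signal per gene, which is the read count divided by a size factor of the library, so no raw counts were used. The versions of the aligner and counter and the strand setting of the counting are not given in the sources used here. For 5 libraries, every nonzero value (100%) was a whole multiple of the worth of 1 read (tolerance 0.01), which gave 9853000 to 12229175 reads per library. The reads of GαqKO replicate 3 were not recovered, so count tests used the other 5 libraries.

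Gene models and coordinates were taken from a later GENCODE release of GRCm39, which matched 56310 of 56953 identifiers. The main test was limma 3.58.1 (R 4.3.3) on log2(normalized count + 1), two-sided, the prior spread following a trend on level, with Benjamini-Hochberg adjustment over the 14096 genes that reached 10 normalized counts in 3 or more libraries. Thresholds were an adjusted p under 0.05 and, where stated, a log2 fold change over 1 or under -1. The floor of 3 counts covers counting error only. Levels per kb used the merged exons of all annotated transcripts of a gene, which need not match the transcripts expressed. Alternatives covered the scaling, filter, pseudocount, prior spread, replicate block, edgeR 4.0.16 and DESeq2 1.42.0 on recovered reads, and fits that left out 1 library each. The fits were tested on simulated data. Each library was counted as 1 sample. Replicates of a genotype with recovered reads differed by more than counting noise (chi-square per gene 2.44 to 5.50). This does not show whether they came from separate cultures.

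The 10 genes and all lists (Hippo core kinases and activators, binding partners, antagonists and cadherins, further targets, and fibroblast, epithelial, endothelial, blood cell and muscle markers) were chosen with earlier results of these data known. From each Hippo list the text names up to 4 genes in each direction past both thresholds whose mean reached 100 normalized counts, the TEAD genes and the label check genes. Genes outside this rule are named for their role, for a count of few genes or after their values were seen. A gene of these lists is counted but its values are not reported here.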

Additional observations from a re-analysis of the deposited data

How the results depend on the processing

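For the 10 genes, log2 fold changes kept their direction and their side of the adjusted p threshold in 159 combinations of gene and alternative. The 1 that did not was Tead1 without WT replicate 3 (0.21, limma adjusted p = 0.00237), where 2 of the 10 genes were higher in place of 1. The limma fit on the 5 libraries with recovered reads is the same as that without GαqKO replicate 3. Both are included in these combinations and in the counts below. Tead1 ran from 0.0013 to 0.21 with 1 library left out, Ccn2 from -2.94 to -2.80, Ankrd1 from -2.65 to -2.57, Amotl2 from -1.72 to -1.68, Ccn1 from -1.58 to -1.49 and Wwtr1 from 0.67 to 0.72. With at least 10 normalized counts required in every library, which leaves out genes expressed in 1 line only, 831 genes were higher and 765 lower past both thresholds against 1432 and 1486, and 1 binding partner was lower in place of 2. With 1 library left out these totals ran from 1394 to 1447 and from 1464 to 1506, and core kinases higher past the threshold from 1 to 2 (2 without GαqKO replicate 2). The other 219 counts moved by at most 1.5 times. On the recovered reads of 5 libraries edgeR gave 1430 higher and 1470 lower genes and DESeq2 1333 and 1508. Same-numbered libraries did not deviate together (correlations -0.05, -0.15 and -0.06). This cannot show whether they were grown or prepared together, and the main test treats them as unpaired. With the replicate number as a block 1421 genes were higher and 1478 lower, with 8 of the 10 genes lower and 1 higher. With 3 libraries per line, small changes were called for some genes and not for others: Ajuba was called at -0.16, while Strn at -0.16 (adjusted p = 0.0707) and Fjx1 at 0.19 (adjusted p = 0.0944) were not.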
